A study of Homo sapiens with 6 samples.

Results

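The Krüppel-like factors (KLF) examined here are 10 genes, KLF2, KLF3, KLF4, KLF5, KLF6, KLF7, KLF9, KLF10, KLF11 and KLF13, taken by exact symbol from a table of 31628 genes. They were measured by poly(A)-selected RNA sequencing in HCT116, a human colon cancer cell line. All 6 libraries come from HCT116 cells in which ENL carries an auxin-inducible degron (AID) and which stably express AtAFB2, a plant F-box protein that hands auxin-bound degrons to a ubiquitin ligase. The groups, with 2 replicates each, were washout (auxin, then rinsed with PBS and cultured 48 h without it), IAA (the auxin indole-3-acetic acid for 3 h, with 500 um as the labelled dose) and control (the same ENL-AID cells without auxin). The labels speak of selected AID clones, without saying whether 1 clone was used or what a replicate number stands for, so p-values measure only the spread between these samples, which may be technical. No group received IAA without the degron, so effects of ENL loss and of IAA itself cannot be told apart, and washout differs from IAA also in its added culture time.

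KLF proteins bind GC-rich and CACCC sequences through a run of zinc fingers near their C-terminal end, and their N-terminal parts decide what they recruit. KLF2, KLF4, KLF5, KLF6 and KLF7 are mostly described as activators, KLF3 represses through the CtBP corepressors, and KLF9, KLF10, KLF11 and KLF13 recruit the SIN3A corepressor complex. In gut epithelium KLF5 is known from the dividing cells of the crypt and KLF4 from differentiated cells. ENL, encoded by MLLT1, reads acetylated histones and works with elongation factors at active genes. The degron acts on the protein, so the transcript does not check the treatment: MLLT1 had 463 and 428 reads in washout, 445 and 402 with IAA and 459 and 480 in control (IAA against control, log2 change -0.18, limma-voom adjusted p = 0.209).

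By the steps of their values the libraries held between 16440000 and 16770000 reads. Whole reads recovered from those steps summed to more, between 17269897 and 17571538. Per library, 8220 to 8406 genes had at least 1 FPKM (fragments per kilobase, scaled to library size). The 6 colon epithelium markers EPCAM, KRT8, KRT18, KRT19, CDH1 and VIL1 all averaged at least 1 FPKM. Their reads summed to 52114 and 54070 in washout, 44014 and 44862 with IAA and 53454 and 55608 in control, so this sum, carried mostly by the keratins, was lower with IAA. Of all genes tested, 12.8% were lower and 10.7% higher with IAA by limma-voom, and 6.49% lower and 6.64% higher by limma. Among the 6 markers, 4 fell by limma-voom (KRT8, KRT18, KRT19 and EPCAM), VIL1 rose 1.24-fold and CDH1, at 1.01 times control, did not pass. By limma only the 3 keratins passed (adjusted p = 0.0228, 0.0221 and 0.0137 for KRT8, KRT18 and KRT19). The part of that shift in the KLF results was not tested. Fibroblast markers summed to between 159 and 232 reads per library, nearly all of COL1A1, endothelial markers to between 11 and 22 and blood markers to between 1 and 3. In bulk RNA, fewer cells expressing a gene and less RNA per cell cannot be told apart.

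The 10 KLF transcripts spanned a wide range of levels. The deposited FPKM divides by the whole gene span with introns, which lowers long genes, so levels between genes are given as RPKM over the exon length, computed from recovered whole reads. The sources used here do not say whether reads in introns were counted, and such reads would raise the values of long genes. On this scale KLF10 was highest, with 49.8 in washout, 41.1 with IAA and 53.2 in control (group means, n = 2 each). KLF5 followed with 36.0 in washout, 27.9 with IAA and 39.8 in control, and KLF6 with 25.4 in washout, 23.9 with IAA and 25.8 in control. The middle was formed by KLF2 with 17.2 in washout, 22.4 with IAA and 19.1 in control, KLF13 with 15.8 in washout, 11.5 with IAA and 14.5 in control, KLF3 with 11.4 in washout, 10.0 with IAA and 11.2 in control, and KLF4 with 11.2 in washout, 10.6 with IAA and 10.8 in control. KLF3 and KLF4 could not be ordered in washout, where their replicates overlapped, or in control, where KLF4 spread from 10.3 to 11.2 around both KLF3 values. KLF11, KLF7 and KLF9 were low, at 2.60, 2.20 and 1.56 in control. With IAA, KLF11 was at 1.54, the lowest of the 10, with replicates of 1.32 and 1.75 beside 1.80 and 2.24 for KLF7 and 1.85 and 2.00 for KLF9. KLF7 and KLF9 overlapped with IAA.

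**Figure D1:**
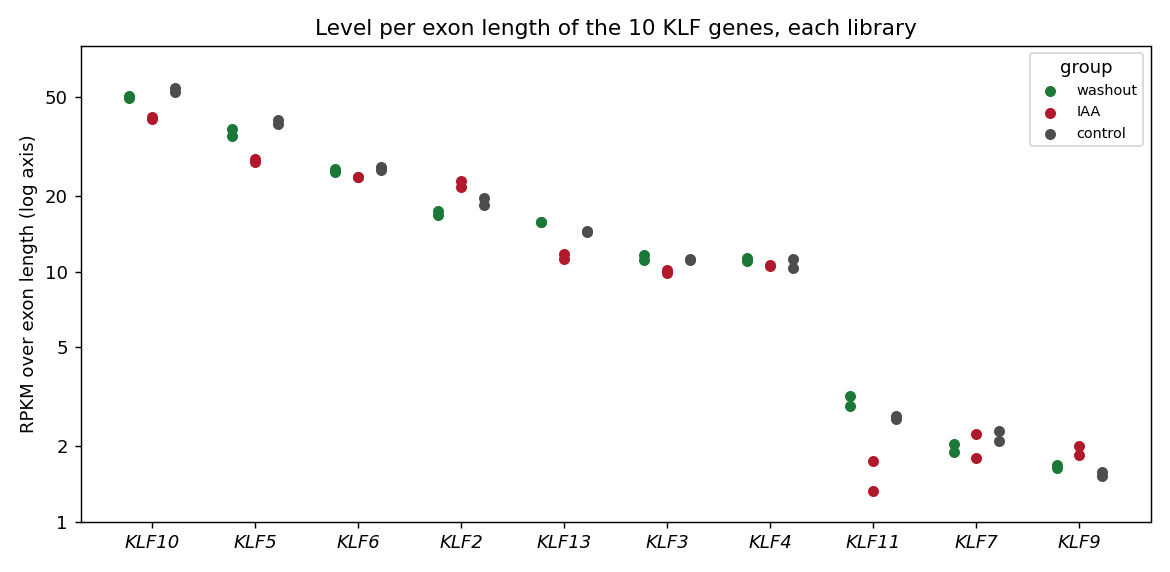
Level of each KLF gene in each library, in RPKM over exon length on a log axis, with washout, IAA and control side by side and 1 point per library. KLF10, KLF5 and KLF6 lead in every group, and both KLF11 points with IAA lie below those of KLF7 and KLF9.

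Promoter windows from RefSeq (GRCh38.p14, 250 bases before to 50 after a listed start) were held for 8 of the 10 genes. Those of KLF5, KLF11 and KLF13 are shown because these genes fell with IAA. That of KLF2 is shown because it stood above control with IAA, without passing, and that of KLF4 because it passed in no comparison. KLF6, which fell only by limma-voom, is not printed. For KLF5 and KLF11, which have more than 1 listed start, the window with the most GC boxes is printed, and the data do not show which start was used. Capitals mark the GC box GGGCGG or its reverse complement CCGCCC, a sequence that KLF and SP proteins are known to bind. The windows are chr13:73058755-73059054 (plus strand) for KLF5, chr2:10043971-10044270 (plus) for KLF11, chr15:31326585-31326884 (plus) for KLF13, chr19:16324576-16324875 (plus) for KLF2 and chr9:107489720-107490019 (minus) for KLF4, each written 5′ to 3′ on the strand of the gene.
KLF5: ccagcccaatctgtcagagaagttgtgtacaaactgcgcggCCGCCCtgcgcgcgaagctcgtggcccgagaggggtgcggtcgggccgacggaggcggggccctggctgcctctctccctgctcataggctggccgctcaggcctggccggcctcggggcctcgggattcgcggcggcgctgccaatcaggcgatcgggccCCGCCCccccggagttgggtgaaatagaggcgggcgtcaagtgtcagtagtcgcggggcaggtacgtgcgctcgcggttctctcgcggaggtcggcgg
KLF11: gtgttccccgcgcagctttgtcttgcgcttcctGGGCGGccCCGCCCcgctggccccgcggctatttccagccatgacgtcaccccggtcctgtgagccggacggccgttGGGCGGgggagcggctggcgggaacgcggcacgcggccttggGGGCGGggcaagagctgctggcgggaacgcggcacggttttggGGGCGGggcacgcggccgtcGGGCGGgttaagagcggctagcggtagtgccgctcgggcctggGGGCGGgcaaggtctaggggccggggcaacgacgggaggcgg
KLF13: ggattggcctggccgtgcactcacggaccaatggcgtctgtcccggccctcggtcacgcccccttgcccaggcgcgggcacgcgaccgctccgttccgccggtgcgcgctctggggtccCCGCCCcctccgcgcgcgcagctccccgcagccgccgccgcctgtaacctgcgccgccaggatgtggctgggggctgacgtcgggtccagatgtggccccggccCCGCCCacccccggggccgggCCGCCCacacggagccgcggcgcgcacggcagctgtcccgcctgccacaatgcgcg
KLF2: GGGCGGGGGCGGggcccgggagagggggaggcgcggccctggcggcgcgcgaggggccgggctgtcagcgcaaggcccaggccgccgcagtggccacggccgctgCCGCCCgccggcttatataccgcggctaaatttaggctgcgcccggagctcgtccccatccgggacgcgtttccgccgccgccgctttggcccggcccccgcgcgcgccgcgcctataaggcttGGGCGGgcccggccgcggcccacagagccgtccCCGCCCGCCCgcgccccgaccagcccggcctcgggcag
KLF4: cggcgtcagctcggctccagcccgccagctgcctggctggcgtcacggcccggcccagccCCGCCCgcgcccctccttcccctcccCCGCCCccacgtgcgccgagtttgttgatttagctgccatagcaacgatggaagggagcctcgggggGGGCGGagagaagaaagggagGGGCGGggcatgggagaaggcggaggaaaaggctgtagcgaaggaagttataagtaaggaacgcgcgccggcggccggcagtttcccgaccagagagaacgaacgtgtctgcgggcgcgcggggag

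These windows held 2 GC boxes in KLF5, 7 in KLF11, 3 in KLF13, 6 in KLF2 and 4 in KLF4. The other KLF5 window held 0 and the other KLF11 window 2. Of the genes not printed, the KLF6 window held 2, the KLF9 window 0 and the KLF7 windows 0, 0, 4 and 0. A GC box on either strand was present in 45.0% of all 35116 RefSeq windows of this length. GC content was 71.3% for the KLF5 window, 75.3% for KLF11, 78.3% for KLF13, 80.7% for KLF2 and 69.0% for KLF4. The CACCC box (CACCC or GGGTG) matched 2 times in KLF5, 1 time in KLF11, 1 time in KLF13, where it overlaps a GC box, and 0 times in KLF2 and KLF4, with 59.9% of all windows holding one. Genes that fell and genes that did not thus both carried GC boxes, and a match is only a run of letters. As the printed KLF5 and KLF11 windows were picked for their GC boxes, their counts cannot be weighed against the 45.0% of all windows.

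The first comparison asks which KLF transcripts had changed after 3 h of auxin. KLF5, KLF10, KLF11 and KLF13 fell to between 0.591 and 0.795 of their control FPKM, and KLF3 and KLF6 fell by less. None passed as higher, although KLF2 and KLF9 stood at 1.17 and 1.24 times control with groups that did not overlap. How many of all genes had groups that did not overlap was not counted, here or for the members below. On log2(FPKM + 1) with limma, which tested the 7 genes averaging at least 1 FPKM, 3 of 7 were lower and 0 higher at an adjusted p under 0.05. Of all 8317 genes tested 13.1% passed, 6.49% lower and 6.64% higher. On whole reads recovered from the FPKM steps and tested with limma-voom, which reached all 10 genes, 6 of 10 were lower and 0 higher, beside 12.8% lower and 10.7% higher, 23.6% in all, of 14811 genes. The median log2 change of the 10 was -0.18, against 0.000619 over all genes tested.

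Among the activators, KLF5, a driver of crypt cell growth, had 4.99 and 5.11 FPKM with IAA, against 7.06 and 7.34 in control. Both IAA libraries lay below both control libraries, on 1852 and 1932 reads with IAA and 2647 and 2775 in control. KLF5 fell to 0.701 of control (limma log2 change -0.44 ± 0.04 SE, adjusted p = 0.0113, and adjusted p = 7.97e-10 by limma-voom).

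KLF2, known for quiescence of endothelium and lymphocytes, had 15.1 and 15.9 FPKM with IAA, against 12.8 and 13.6 in control. The groups did not overlap, at 1.17 times control, but neither fit passed (adjusted p = 0.0611 by limma and 0.0784 by limma-voom). KLF4, of differentiated gut epithelium, had 7.25 and 7.16 FPKM with IAA, against 7.67 and 7.03 in control. These overlapped, and the limma-voom log2 change of -0.06 had a 95% interval of -0.23 to 0.10.

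KLF6, an early-response gene also described as a tumour suppressor, had 16.5 and 16.6 FPKM with IAA, against 18.2 and 17.6 in control. It was at 0.925 of control and fell only in the fit on reads (limma-voom adjusted p = 0.0258, limma adjusted p = 0.141). KLF7, known from neuronal outgrowth, had 0.188 and 0.233 FPKM with IAA, against 0.240 and 0.218 in control, with overlapping groups and a limma-voom log2 change of -0.17 (95% interval -0.41 to 0.08).

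KLF3, the CtBP-binding repressor, had 1.77 and 1.82 FPKM with IAA, against 2.00 and 2.01 in control. It was at 0.895 of control and likewise fell only on reads (limma-voom adjusted p = 0.0265, limma adjusted p = 0.111). GENCODE 29 places 266 of its exon bases against the antisense gene KLF3-AS1, and as strand use in counting is not stated, reads of both cannot be told apart. Its pseudogene KLF3P1 had 80.3 reads on average, and how reads shared with copies were counted is not stated.

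Among the SIN3A-recruiting members, KLF10, first described as a TGF-beta-inducible early gene, had 24.5 and 24.0 FPKM with IAA, against 30.7 and 32.0 in control. The groups were well apart, and KLF10 fell to 0.774 of control (limma log2 change -0.36 ± 0.04 SE, adjusted p = 0.0137, and 3.03e-08 by limma-voom). KLF11, its close relative, had 0.533 and 0.701 FPKM with IAA, against 1.03 and 1.06 in control. It has the lowest ratio of the 10, 0.591, on 105 and 141 reads with IAA and 205 and 213 in control.

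With a mean below the FPKM filter, KLF11 was tested on reads alone (limma-voom log2 change -0.81 ± 0.17 SE, adjusted p = 0.00055). It shares 416 exon bases with the antisense gene AC104794.4, so the strand limit given for KLF3 holds here too. KLF13, known from lymphocyte chemokine expression, had 1.07 and 1.02 FPKM with IAA, against 1.31 and 1.31 in control. It fell to 0.795 of control, with limma-voom adjusted p = 2.36e-06 and limma adjusted p = 0.0376. Its intron holds the pseudogene UBE2CP4 on the same strand, with 754 reads on average and no exon overlap. As intron counting is not stated, whether reads of UBE2CP4 entered the KLF13 values cannot be told. KLF9, a hormone-induced member, had 0.334 and 0.361 FPKM with IAA, against 0.287 and 0.276 in control, at 1.24 times control without passing (limma-voom log2 change 0.27, 95% interval -0.07 to 0.60).

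Leaving out any 1 of the 4 libraries compared ended the limma calls, with adjusted p of 0.0687 to 0.0778 for KLF5, 0.0738 to 0.0863 for KLF10 and 0.117 to 0.149 for KLF13 (0.0779 or more without a washout library), while by limma-voom KLF5, KLF10, KLF11 and KLF13 passed without each library (highest adjusted p 0.0307, for KLF11). The smaller calls of KLF3 and KLF6 by limma-voom were lost without any of those 4 libraries, with adjusted p up to 0.163 and 0.174.

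**Figure D2:**
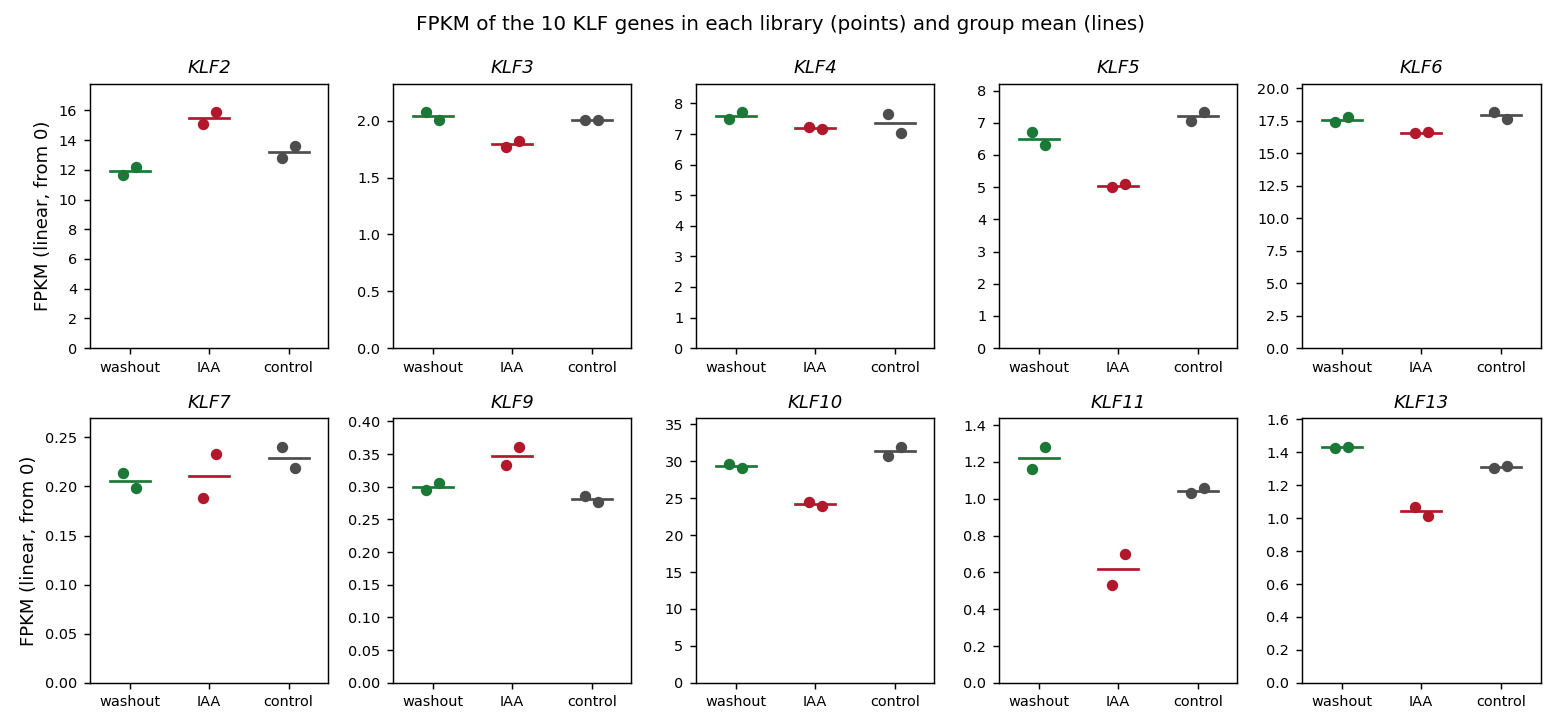
FPKM of each of the 10 KLF genes, 1 panel per gene with its own axis from 0, for washout, IAA and control, with 1 point per library and a line at the group mean. In KLF3, KLF5, KLF6, KLF10, KLF11 and KLF13 both IAA libraries lie below all libraries of the other groups, and in KLF2 and KLF9 both lie above them. The share of all genes separated in this way was not counted, and KLF2 and KLF9 did not pass in IAA against control.

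**Figure D3:**
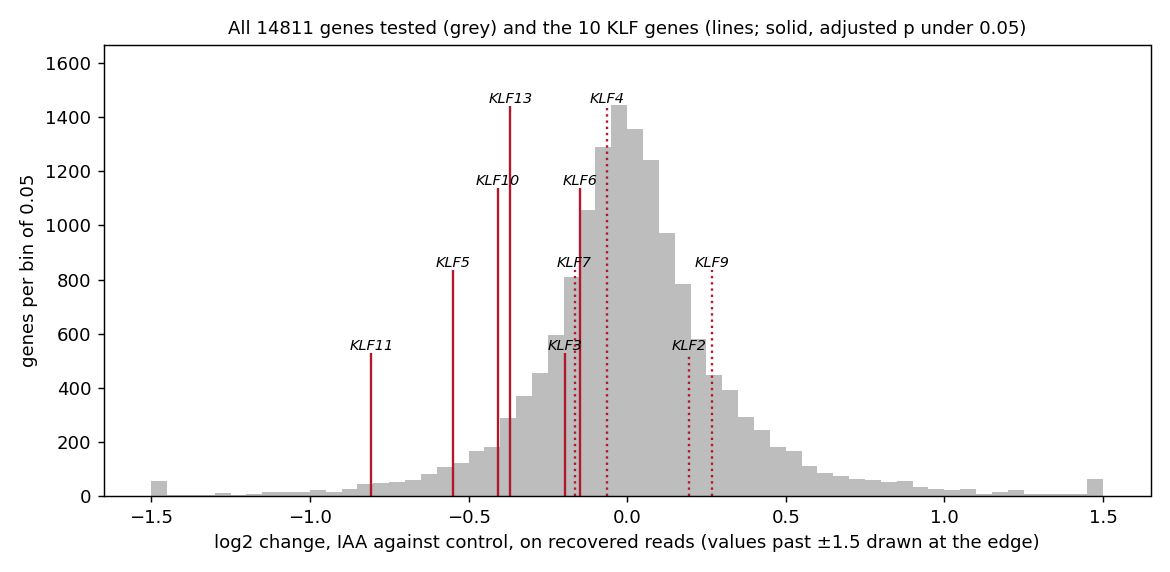
Histogram of the log2 change of IAA against control on recovered reads for all 14811 genes tested (grey, genes per bin, values past 1.5 in either direction drawn at the edge), with a red line at each KLF gene, solid where the adjusted p is under 0.05 and dotted otherwise; line height has no meaning. KLF11 at -0.81 and KLF5 at -0.55 stand in the lower tail, and KLF2, KLF4, KLF7 and KLF9 are dotted.

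The second comparison asks what had changed 48 h after auxin was removed, relative to IAA. KLF5, KLF10, KLF11 and KLF13 were higher after washout, at 1.21 to 1.98 times their IAA level, and KLF2 was lower. By limma 3 of 7 were higher and 1 lower, beside 7.73% higher and 6.65% lower (14.4% in all) of all genes, and by limma-voom 5 of 10 were higher and 1 lower, beside 13.3% higher and 11.8% lower (25.2% in all). The median log2 change of the 10 on reads was 0.16, against 0.00181 over all genes. This comparison shares the IAA libraries with the first, so the 2 comparisons are not independent.

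KLF11 had 1.16 and 1.28 FPKM in washout, against 0.533 and 0.701 with IAA, and rose 1.98-fold (limma-voom adjusted p = 1.65e-05). KLF13 had 1.42 and 1.43 FPKM in washout, against 1.07 and 1.02 with IAA, and rose 1.37-fold (limma adjusted p = 0.0187). KLF5 had 6.70 and 6.31 FPKM in washout, against 4.99 and 5.11 with IAA, and rose 1.29-fold (limma adjusted p = 0.0203). The libraries of the 2 groups did not overlap in any of these 3 genes, a pattern whose share over all genes was not counted.

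KLF10 had 29.6 and 29.1 FPKM in washout, against 24.5 and 24.0 with IAA, and rose 1.21-fold (limma adjusted p = 0.0241). KLF2 had 11.7 and 12.2 FPKM in washout, against 15.1 and 15.9 with IAA, and fell to 0.769 of IAA (limma adjusted p = 0.0222, limma-voom adjusted p = 0.00136). The members thus did not split by activator and repressor. The activator KLF2 stood below its IAA level, and the activator KLF5 and the repressors KLF10, KLF11 and KLF13 above theirs. Without passing, KLF9, which also recruits SIN3A, was at 0.864 of IAA and the activator KLF6 at 1.06.

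KLF3 had 2.08 and 2.01 FPKM in washout, against 1.77 and 1.82 with IAA, and passed on reads alone (1.14-fold, limma-voom adjusted p = 0.0177), a call lost without IAA replicate 1 or washout replicate 1. KLF6 had 17.4 and 17.8 FPKM in washout, against 16.5 and 16.6 with IAA, at 1.06 times IAA (limma-voom adjusted p = 0.11). KLF4 had 7.49 and 7.72 FPKM in washout, against 7.25 and 7.16 with IAA, and its log2 change of 0.10 on reads had a 95% interval of -0.07 to 0.27. KLF7 had 0.213 and 0.198 FPKM in washout and was at 0.977 of IAA, and KLF9 had 0.295 and 0.306 FPKM in washout and was at 0.864 of IAA, and neither passed (limma-voom adjusted p = 0.983 and 0.438).

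For washout against IAA, the limma calls of KLF2, KLF5, KLF10 and KLF13 were each lost without 1 library, whichever was left out (adjusted p from 0.0505 to 0.108). By limma-voom KLF2, KLF5, KLF10, KLF11 and KLF13 passed in all 6 such fits.

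**Figure D4:**
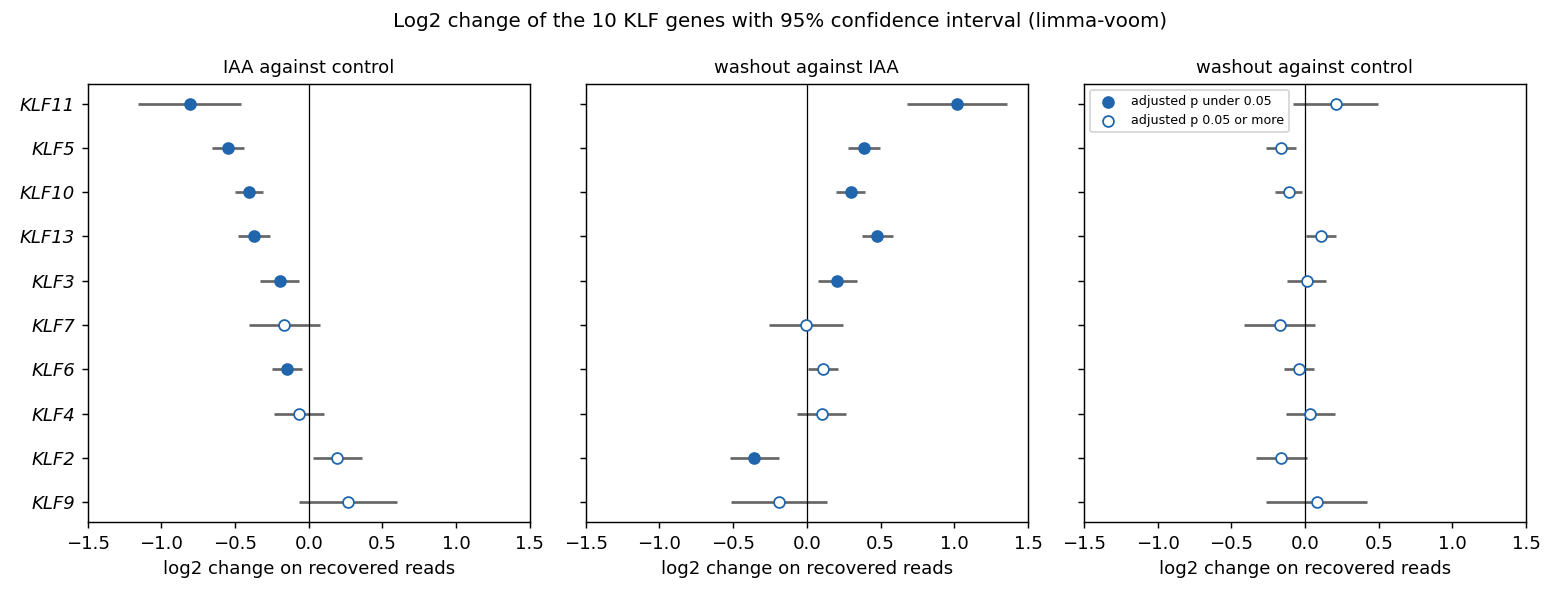
Log2 change of the 10 KLF genes on recovered reads (limma-voom) with 95% intervals, in 3 panels for IAA against control, washout against IAA and washout against control, with filled points where the adjusted p is under 0.05. In the first panel 6 genes are filled, all below 0, in the second 5 above 0 and KLF2 below, and in the third none.

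The third comparison sets washout against control. No KLF gene passed by limma or limma-voom, where 0% and 0.641% of all genes passed (0.236% higher and 0.405% lower by limma-voom). By limma 2 of the 7 KLF genes had an unadjusted p under 0.05, beside 750 of all 8317 genes, and by limma-voom 3 of the 10 did, beside 1607 of all 14811. FPKM ratios of washout to control ran from 0.896 for KLF7 to 1.17 for KLF11. The smallest adjusted p was that of KLF5 by limma-voom, at 0.167, with 6.70 and 6.31 FPKM in washout, against 7.06 and 7.34 in control, and a log2 change of -0.16 (95% interval -0.26 to -0.06). KLF11 had 1.16 and 1.28 FPKM in washout, against 1.03 and 1.06 in control, a log2 change on reads of 0.21 with a 95% interval of -0.08 to 0.50. A p that misses the threshold does not show that washout and control were alike.

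The gene lists that follow were counted by limma-voom, by which 10.7% of all genes were higher and 12.8% lower with IAA, and 13.3% higher and 11.8% lower in washout against IAA. These lists were chosen with earlier results of these data known, so their counts beside these shares are descriptive only. Of the 7 other KLF genes, KLF8, KLF12 and KLF16 averaged at least 10 reads and were tested, and by limma-voom 1 was lower with IAA and 0 higher. KLF16, a SIN3A-binding member, had 1402 and 1469 reads with IAA, against 1729 and 1840 in control (0.808 of control, limma adjusted p = 0.024), and rose 1.26-fold in washout against IAA (limma adjusted p = 0.0203). KLF8 was lower in washout than with IAA on only 7 and 17 reads, against 29 and 26 (limma-voom adjusted p = 0.0397).

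The related SP factors bind the same GC boxes. Of 6 tested by limma-voom, 2 rose and 1 fell with IAA, and in washout against IAA 2 rose and 2 fell (median log2 change -0.07 and 0.13). SP4 had 312 and 332 reads with IAA, against 168 and 185 in control (1.83-fold, adjusted p = 2.49e-05). SP6 rose 1.37-fold (adjusted p = 0.000249) and SP3 fell to 0.908 of control (adjusted p = 0.00957). SP5, a WNT-responsive gene, had 4 and 7 reads with IAA, against 15 and 15 in control (adjusted p = 0.057), and 18 and 23 in washout, above IAA (adjusted p = 0.00965).

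**Figure D5:**
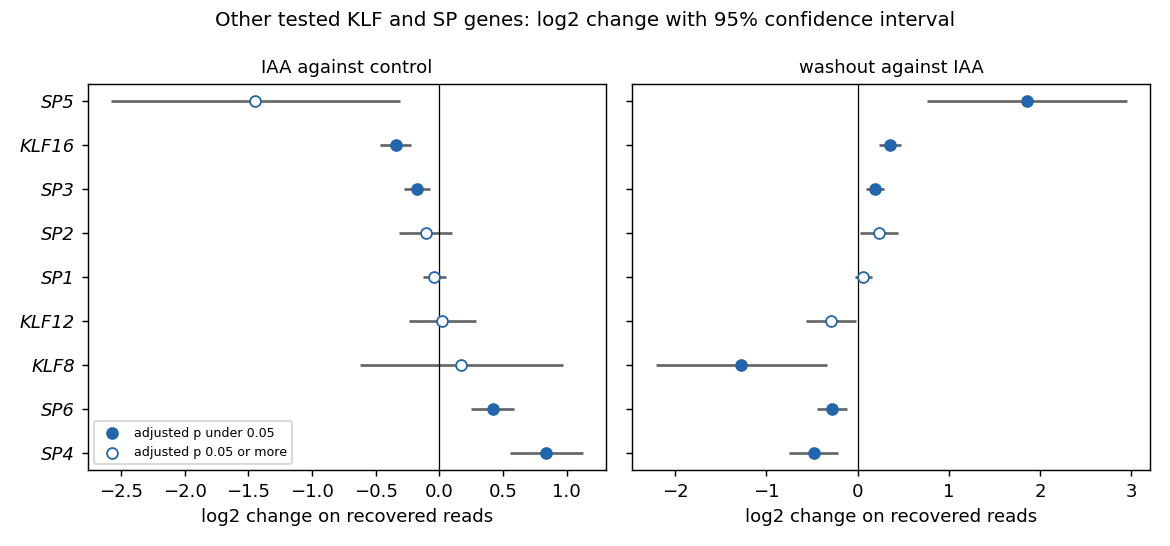
Log2 change on recovered reads with 95% intervals (limma-voom) of the other tested KLF and SP genes, for IAA against control and washout against IAA, with filled points where the adjusted p is under 0.05. KLF16 and SP3 lie below 0 with IAA and SP4 and SP6 above, and SP5 and KLF8 have wide intervals on few reads.

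The corepressors that KLF proteins bind were also read out, by limma-voom. Of 7 tested, 4 fell and 1 rose with IAA, and 4 rose and 0 fell in washout against IAA (median log2 change -0.16 and 0.16). The deacetylase gene HDAC2 had 3467 and 3494 reads with IAA, against 3959 and 4029 in control (0.876 of control, adjusted p = 0.000194). CTBP1 and CTBP2, partners of KLF3, fell to 0.883 and 0.872 of control, while SIN3A, the scaffold used by KLF9, KLF10, KLF11 and KLF13, rose 1.25-fold (adjusted p = 0.0044).

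Of 7 ubiquitin ligases and deubiquitinases that act on KLF proteins, 1 rose and 0 fell with IAA, and 0 rose and 3 fell in washout against IAA (median log2 change 0.04 and -0.07). The 1 of 7 higher with IAA is near the 10.7% of all genes. ATXN3, a deubiquitinase, rose 1.49-fold with IAA (adjusted p = 0.00264). Upstream of KLF2 and KLF4 stand the kinase ERK5 and the MEF2 factors, of which 3 of 5 rose with IAA and 2 of 5 fell in washout against IAA (median log2 change 0.30 and -0.18). MEF2C had 316 and 314 reads with IAA, against 170 and 154 in control (1.95-fold, adjusted p = 4.28e-06), and MEF2D and MEF2A rose 1.26-fold and 1.2-fold.

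Of 14 genes described as KLF targets 11 were tested, and with IAA 2 rose and 1 fell, as 2 rose and 1 fell in washout against IAA (median log2 change 0.00486 and 0.12). Both counts of 3 of 11 are near the background, in which 23.6% and 25.2% of all genes passed in either direction. CCND1, encoding cyclin D1 and described as activated by KLF5, had 19861 and 19587 reads with IAA, against 30956 and 32644 in control (0.623 of control, limma adjusted p = 0.00402). CDKN1A, the cell cycle inhibitor p21 described as a KLF4 target, rose 1.36-fold (limma adjusted p = 0.00919). With IAA the remaining targets tested did not pass apart from TGFBR1, which rose 1.16-fold (limma-voom adjusted p = 0.035).

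Because KLF10 and KLF11 are known as TGF-beta early genes, 7 early genes of that pathway were set beside them. By limma-voom 4 fell and 1 rose with IAA, and 5 rose and 1 fell in washout against IAA (median log2 change -0.38 and 0.40). TGIF1, a corepressor of SMAD proteins, had 1146 and 1239 reads with IAA, against 1883 and 1898 in control (0.634 of control, limma adjusted p = 0.00768). BHLHE40 and ID1 fell to 0.572 and 0.716 of control. The 1 that rose was SKI, with 3413 and 3656 reads with IAA, against 2813 and 2821 in control. Whether TGF-beta signalling had a part in any of these changes was not tested.

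KLF2, KLF6 and KLF10 are also known as serum-responsive genes, and 8 early genes of that response were counted likewise. With IAA 7 of 8 rose and 0 fell, and in washout against IAA 7 fell and 0 rose (median log2 change 0.85 and -1.03). EGR1 had 2415 and 2342 reads with IAA, against 942 and 1090 in control (2.35-fold, limma adjusted p = 0.00529), and FOS, FOSB and ATF3 rose 2.9-fold, 4.22-fold and 2.58-fold. None of the listed genes of any of these groups passed in washout against control.

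The genes whose profile over the 6 libraries was most like a KLF profile were found by the distance between log2(FPKM + 1) values centred on each gene's mean, among 8317 genes. For KLF5 they were PHLDA1 and ID1, at distances of 0.0671 and 0.0802, where the median gene was at 0.504. For KLF10 they were CLIP4 and NAA15, at 0.0592 and 0.0632 (median 0.427), and for KLF13 FAHD1 and SCRN1, at 0.0422 and 0.0452 (median 0.321). These neighbours were picked for the smallest distances over the same 6 libraries, so their place far below the median follows from the picking. The likeness is thus no separate result. PHLDA1 had 58.9 and 57.7 FPKM in washout, 47.8 and 48.6 with IAA and 65.6 and 67.0 in control, with the IAA libraries lowest as in KLF5.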

How the data were processed

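Per the labels' protocols, Trizol RNA was poly(A)-selected and reverse-transcribed with random primers. The authors deposited 1 FPKM value per gene and library. Per the submitters' processing notes the tools named were HISAT, Bowtie2, HTSeq and edgeR with hg19, without versions or roles.

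Main test: limma 3.58.1 (R 4.3.3) with a variance trend, run on log2(FPKM + 1) for genes averaging at least 1 FPKM, 3 group means over 6 libraries, Benjamini-Hochberg over all genes tested, two-sided, threshold 0.05. A fold on this scale understates changes of low genes. Second test: whole reads recovered from the FPKM steps (100% of 21707 genes above 0 came out whole within 0.02 reads; 18730 were fixed by GENCODE 29 gene span, all KLF members included, and for the others whole reads were imposed), limma-voom with TMM scaling for genes averaging at least 10 reads. MLLT1 and TGIF1 were among the genes not fixed by their span, so the read numbers given for them are less sure. The second test called 3494 genes in IAA against control, where limma called 1092. Both scripts were tested on simulated data built from the same gene spans, with a fixed spread and changes larger than most KLF changes. Smaller changes were not covered by that run. Recovered reads summed to between 104.6% and 105.0% of the step totals, and the reason was not tested. RPKM levels and limma-voom used the recovered sums. SEs and intervals are those of the fits.

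All 10 members are named whatever their test, and of each gene list at most the 4 with the smallest p in a comparison. SKI is named as the 1 TGF-beta gene that rose with IAA. The members and lists were chosen with earlier results of these data known. A listed gene that is withheld is counted but not reported here. Alternatives were other pseudocounts, no filter, TPM scaling, other size factors, a replicate block, pairs of groups alone and each library left out.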

Additional observations from a re-analysis of the deposited data

How the results depend on the processing

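Counts of called genes moved with the processing. By limma, IAA against control gave 1092 genes, 486 with a replicate block, 536 from the 2 groups alone, 3494 by limma-voom and 50 to 534 with 1 library left out. Washout against IAA gave 1196, with 532 under the replicate block, 413 from the 2 groups alone, 3725 by limma-voom and 46 to 421 with 1 library left out. Washout against control gave 0, with 48 without the filter and 95 by limma-voom. On recovered reads without the filter the counts were 1989, 2169 and 0 in the same order, and with 1 library left out 2284 to 3691, 2739 to 3674 and 21 to 153. Scaled to TPM, the split for IAA against control was 397 higher and 647 lower, beside 552 and 540, and for washout against IAA 804 and 400, beside 643 and 553. The cause of these moves was not tested, and the fits that leave some libraries out also have fewer samples.

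Same-numbered replicates did not deviate together (correlations of 0.043, 0.006 and -0.027). This shows no large shift shared by number, but it cannot show whether libraries were prepared in pairs, which the labels do not state. Under the block the limma adjusted p was 0.0782 for KLF13 in IAA against control, and 0.0531 for KLF5 and 0.0586 for KLF10 in washout against IAA. Without the filter it was 0.053 for KLF13 (limma), 0.0627 for KLF3 and 0.0659 for KLF6 (limma-voom) in IAA against control, and from the 2 groups alone 0.0792 for KLF13 there, and in washout against IAA 0.0538 for KLF13, 0.0503 for KLF2, 0.0523 for KLF5 and 0.0547 for KLF10 (limma). The sign of some uncalled changes turned with 1 library left out: KLF4 spanned -0.0792 to 0.0299 (limma, IAA against control), -0.00994 to 0.0992 (limma, washout against control) and -0.0289 to 0.0921 (reads, washout against control), KLF7 -0.16 to 0.15 (reads, washout against IAA) and KLF3 -0.00936 to 0.0255 (reads, washout against control). KLF11, KLF7 and KLF9 rest on the fewest reads and have the widest intervals.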
